A study of Arabidopsis thaliana with 44 samples.

Results

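The 47 Arabidopsis genes that are described as glutathione transferases on the Agilent 22 K microarray were followed through callus, inflorescence, leaf, root and silique. The rule took the probes for genes whose description names a glutathione transferase or a glutathione S-transferase, with no measured value in it, and these are 47 of the 21500 gene probes, with 1 probe per gene. By their locus, 28 belong to the tau class (GSTU), 13 to the phi class (GSTF), 3 to theta (GSTT), 2 to zeta (GSTZ) and 1, AT1G65820, is annotated as microsomal. All 47 loci were found in a later reference table, from which the gene symbols were taken. By that table, 34 of them lie in 11 groups of neighbouring genes, among them GSTU1 to GSTU7, GSTU19 to GSTU23 and GSTF4 to GSTF7.

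The data came from a comparison of measurement platforms in which the same RNA samples were hybridized to different microarrays. Total RNA of actively growing callus, of immature flower buds of mixed stages (inflorescence), of untreated leaves and of untreated roots, both 21 days old, was measured on 8 single-tissue microarrays. By the description of the study, the same tissue RNA was labelled with both dyes on each of them. Root against leaf and silique, collected 24 to 48 h after fertilization, against inflorescence were measured on 4 direct microarrays, in which root or silique was labelled red (Cy5) and leaf or inflorescence green (Cy3). The study describes its tissues as wild type apart from its floral mutants, and the labels name no mutant for the tissues used here and give no ecotype. Each type of microarray was run as A and B, technical replicates of 1 RNA sample, and the dyes were not swapped on the direct microarrays. Every error and p-value below is thus a measure of technical spread, with n = 2 microarrays per mean, and not of variation between plants. The spread was estimated over all 12 microarrays for direct ratios and over the 8 single-tissue microarrays for levels. Root/leaf and silique/inflorescence ratios of a gene therefore share 1 SE unless a spot was left out. The error of silique/inflorescence comes mostly from microarrays of other types.

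Glutathione transferases join the tripeptide glutathione to reactive or toxic compounds, and the conjugates are then moved into the vacuole by ABC transporters. The tau and phi classes are large in plants, are best known from herbicide and stress detoxification, and also bind and carry compounds without conjugating them. Theta enzymes act on organic hydroperoxides, and zeta enzymes serve tyrosine breakdown. Several genes arose as tandem copies and have very similar transcripts, and how far a probe also binds a neighbour's transcript was not tested, as probe sequences were not used here.

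Levels are given in Normalized Expression Units (NEU), the mean signal of both channels as parts of 1000000 of the summed signal of all gene probes on that microarray. A level is compared only between tissues for the same probe. Ratios are on the log2 scale. A gene is called different where the limma adjusted p, over all gene probes, was under 0.05 and the difference was at least 2-fold.

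Brightness was high on the single-tissue and root/leaf microarrays, where 97.4% to 99.8% of gene probes were well above background in each channel, and lower on the silique/inflorescence microarrays, with 90.2% to 91.6% in green and 70.5% to 76.0% in red. Of the 47 genes, 38 to 42 were well above background in inflorescence and 26 to 28 in silique on the latter. Replicates A and B of the direct microarrays had a correlation of 0.965 (root/leaf) and 0.960 (silique/inflorescence) across all gene probes. Markers mostly followed the labels. The photosynthesis genes CAB1, RBCS1A and RCA had a root/leaf log2 ratio of -3.06 to -5.68, and 4 root genes 1.56 to 3.07. The petal and stamen gene PI had a silique/inflorescence log2 ratio of -5.68, and the other floral genes AP1, AP3 and AG -3.43, -1.22 and -0.29. The fruit and ovule genes SHP1, SHP2 and STK had 2.30 to 2.63. PI was also measured at 237.7 NEU in callus, against 473 in inflorescence and at most 10.3 in leaf and root, and RBCS1A at 751 NEU in root against 2056 in leaf. The 8 single-tissue microarrays are described as holding the same RNA in red and green, so that any ratio would be technical. On them the median absolute log2 red/green ratio of the 47 genes was 0.0573 to 0.158. The ratio passed 2-fold for 3 of the genes on inflorescence B and for 1 on root A. One microarray stood apart. On root A the log2 red/green ratio had a correlation of 0.622 with the root/leaf log2 ratio, against 0.00293 on root B. Whether both channels of root A held the same RNA was not tested. For GSTU20 the root A level was 271 NEU in green and 154 in red, and on root B it was 89.2 and 95.2. Counts of calls and of leading tissues that involve root are therefore also given without root A. The share of all gene probes called was recorded only for the tests as reported. It was recorded for no alternative setting, so counts of calls in such settings cannot be set against it. Callus and inflorescence microarrays were extracted from the scans on one day and leaf and root microarrays on another, so that callus or inflorescence against leaf or root cannot be told apart from that day, while callus against inflorescence and root against leaf lie within a day. By the slide codes in the file headers, root A, root B and leaf B lay outside the slide series of the other 9 microarrays, so that callus or inflorescence against root cannot be told apart from that series either. With the slide series as a random block 29 of the 47 genes were called for callus/root in place of 31, 28 for inflorescence/root in place of 29 and 22 for root/leaf in place of 21, and for root/leaf within the smaller series, that is without leaf A, 20.

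Callus was the tissue with the highest level for more of these genes than any other. Both callus microarrays lay above all 6 others for 20 of the 47 genes (42.6%), against 17.7% of all gene probes. Root was highest in this sense for 13 genes (27.7%, against 21.1%), inflorescence for 4 (8.51%, against 16.1%) and leaf for 4 (8.51%, against 10.2%), and for 6 genes the tissues overlapped. Without root A, a setting chosen after seeing the data, callus led for 20 genes, root for 13, inflorescence for 4 and leaf for 7. Leaving out a microarray can only keep or widen a lead, so no gene could lose its lead in this setting. Over all gene probes the shares were then 18.6% for callus, 30.4% for root, 17.1% for inflorescence and 12.2% for leaf. The root share of the 47 genes, 27.7%, thus lay below that of all gene probes in this setting. In whole tissues, more RNA per cell and more cells of an expressing type cannot be told apart.

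**Figure D1:**
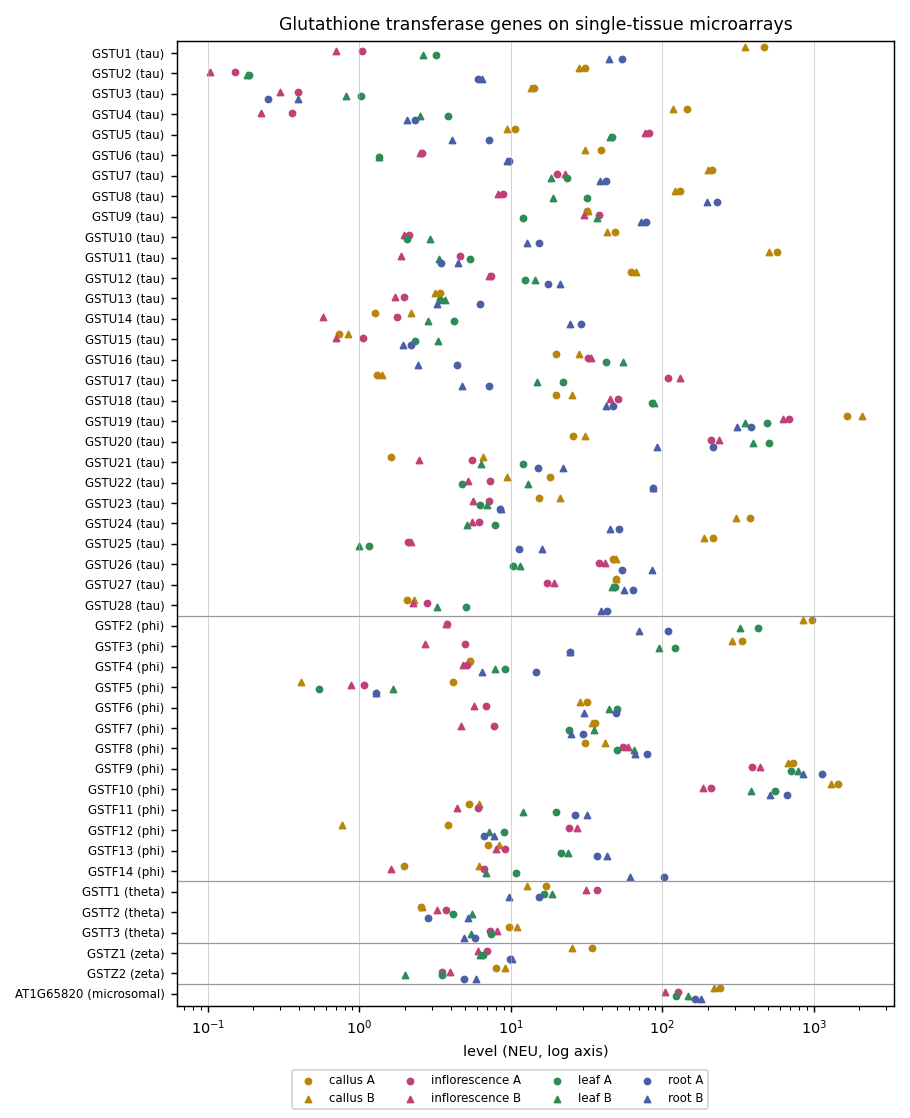
Level of each of the 47 genes on the 8 single-tissue microarrays (x axis, NEU on a log axis; circles microarray A, triangles microarray B; colours are tissues; rows are genes grouped by class). The callus points lie above all others for 20 genes, by the widest margin for GSTU11.

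The widest callus lead was that of GSTU11, a tau gene. Its level was 568 and 507 NEU on callus A and B, 4.63 and 1.89 in inflorescence, 5.41 and 3.37 in leaf and 3.48 and 4.45 in root. The lower callus value was 93.7 times the highest value of any other microarray, and the 3 other tissues overlapped each other. GSTU4 stood at 145 and 117 NEU in callus and between 0.224 and 3.84 NEU on the other 6 microarrays, a lead of 30.5 times. GSTU3 was measured at 14.3 and 13.5 NEU in callus and at no more than 1.03 NEU elsewhere. For both genes the inflorescence signal was well above background in only 2 of 4 channels, and for GSTU3 this held in root too.

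GSTU24 and GSTU25, neighbours whose enzymes are known to conjugate the explosive TNT, shared this pattern. GSTU25 had 215 and 188 NEU in callus, 11.4 and 16.1 in root, 2.11 and 2.19 in inflorescence and 1.16 and 0.992 in leaf, where the root A spot was marked as an outlier and left out of the fit. GSTU24 had 379 and 306 NEU in callus, 51.7 and 44.9 in root and between 5.15 and 7.89 on the 4 leaf and inflorescence microarrays. Root was second to callus for both, with no overlap between tissues except between leaf and inflorescence for GSTU24.

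Among genes with a high signal in every tissue, GSTU19, whose enzyme is very active in glutathione conjugation, had 1669 and 2074 NEU in callus, where both channels of callus A were saturated, and 688 and 622 in inflorescence, 489 and 353 in leaf and 382 and 312 in root. Leaf and root overlapped for this gene, and both lay below inflorescence. GSTF10 had 1439 and 1303 NEU in callus, 662 and 513 in root, 556 and 385 in leaf and 209 and 185 in inflorescence, an order in which only root and leaf overlapped. GSTF9, its neighbour, had 725 and 677 NEU in callus, 709.7 and 784 in leaf, 1125 and 847 in root, where 1 channel of each microarray was saturated, and 392 and 441 in inflorescence.

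In the test of callus against inflorescence, 23 of the 47 genes were higher in callus and 6 in inflorescence, against 11% and 17.3% of all gene probes, and the median log2 ratio was 1.002 against -0.09. Against leaf, 20 were higher in callus and 9 in leaf (all gene probes 15.9% and 22.1%). Against root, 19 were higher in callus and 12 in root (all gene probes 11.9% and 25.4%). The tau class made up 15 of the genes higher in callus in each of the 3 tests, out of 28. Phi gave 5, 3 and 3 of 13. Without root A, 29 genes in all were called against root, in place of 31, and GSTU15, GSTU21, GSTF8 and GSTF12 were no longer among them. GSTU1, well above background in both tissues, had a callus/inflorescence log2 ratio of 8.898 ± 0.27 (SE), adjusted p = 6.3e-06. GSTU2, not well above background in any inflorescence channel, was 96.4-fold higher in callus by the bound defined below, not a strict lower limit. With quantile normalization the split of calls over all gene probes moved from 41.8% to 53.6% higher in callus against leaf and from 31.9% to 50.7% against root, while the 47 genes gave 21 and 7 calls against leaf and 20 and 9 against root.

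Some genes were lowest in callus. GSTU17, also named ERD9 and known to take part in light and dehydration responses, had 1.31 and 1.41 NEU in callus and 109 and 131 in inflorescence, with 22.2 and 15.0 in leaf and 7.13 and 4.78 in root, and no 2 tissues overlapped. Its inflorescence/root log2 ratio was 4.36 ± 0.28 (SE), adjusted p = 0.00012. GSTU20, which binds the jasmonate-conjugating enzyme FIN219, had 25.7 and 31.0 NEU in callus, 211 and 237 in inflorescence, 504 and 394 in leaf and 215 and 92.2 in root. Leaf was highest for GSTU20, with the leaf B spot marked as an outlier and left out of the fit, and root A overlapped inflorescence.

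Root led for GSTU28, GSTU14, GSTF14 and GSTU22 by the widest margins. GSTU28 had 43.0 and 39.4 NEU in root and at most 5.06 NEU on any other microarray. GSTU14 had 28.9 and 24.7 NEU in root against at most 4.19. GSTF14 had 102 and 61.2 NEU against at most 10.8, and its A and B values differed more than those of the other 3. GSTU22 had 86.4 and 86.5 NEU against at most 18.0, the callus A value. For GSTU14, GSTF14 and GSTU28 callus and inflorescence overlapped and leaf lay above both, and for GSTU22 leaf overlapped both. The inflorescence/leaf difference was called for GSTU14, 3.41-fold higher in leaf (adjusted p = 0.047), and not for the other 3. That call was lost in 6 alternative settings, among them quantile normalization and a replicate block. The inflorescence values of GSTU14 were 1.78 and 0.577 NEU on A and B.

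In the inflorescence/root test, 25 genes were higher in root and 4 in inflorescence (all gene probes 20.4% and 15%). The 4 genes higher in inflorescence were GSTU5, GSTU16, GSTU17 and GSTT1. In the inflorescence/leaf test, 14 were higher in leaf and 2, GSTU17 and GSTU26, in inflorescence (all gene probes 12.5% and 12.7%). The median log2 ratio of the 47 genes was -1.26 for inflorescence/root and -0.57 for inflorescence/leaf, against -0.09 and -0.03 over all gene probes. Without root A, 29 genes were called for inflorescence/root, as with it, though GSTU13, GSTU15 and GSTU21 were no longer among them.

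Inflorescence led for GSTF12 and for the theta gene GSTT1, a peroxisomal enzyme, besides GSTU17 and GSTU5. GSTF12, known as TT19 and needed for anthocyanins and seed coat tannin precursors to reach the vacuole, had 24.0 and 27.4 NEU in inflorescence, 9.08 and 7.23 in leaf, 6.66 and 7.69 in root and 3.83 and 0.765 in callus. GSTT1 had 37.2 and 31.3 NEU in inflorescence and between 9.71 and 18.7 NEU elsewhere. For GSTF12 leaf and root overlapped, and the callus values of A and B lay far apart.

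GSTF2, known to bind indole compounds such as camalexin, and GSTF3, its close relative, were far lower in inflorescence than elsewhere. GSTF2 had 969.8 and 849 NEU in callus, 425 and 325 in leaf, 109 and 70.7 in root and 3.76 and 3.71 in inflorescence. GSTF3 had 335 and 289.5 NEU, 121 and 95.7, 24.5 and 24.5 and 5.02 and 2.72 in the same order of tissues. The tissues did not overlap for either gene, and the inflorescence/leaf log2 ratio was -6.64 ± 0.24 (SE), adjusted p = 5.1e-05 for GSTF2 and -4.86 ± 0.30 (SE), adjusted p = 0.00019 for GSTF3.

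On the direct root/leaf microarrays, 17 of the 47 genes were higher in root and 9 in leaf, against 11.6% and 10.9% of all gene probes. Tau supplied 14 of the genes higher in root and 6 of those higher in leaf. Of the called genes, GSTF13, GSTZ1 and GSTU15 fell under 2-fold with normexp and loess. The median of the absolute log2 ratio was 1.26 for the 47 genes and 0.38 over all gene probes, and the signed median was 0.28 against 0.03. Microarrays A and B gave the same sign for 44 of the 46 genes measured on both.

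The highest root/leaf log2 ratios, on A and B, were 4.14 and 3.96 for GSTU1 (mean 4.05 ± 0.16 (SE), adjusted p = 1.1e-07), 3.94 and 4.13 for GSTU25 and 4.24 and 3.73 for GSTU2. GSTF14 had 4.18 and 3.25, GSTU14 4.23 and 2.85 and GSTU28 3.35 and 3.31. These 6 were 10.0-fold to 16.5-fold higher in root by their means, and the gap between A and B was widest for GSTU14. At the other end, GSTU16 had -4.75 and -4.86 (mean -4.802 ± 0.12 (SE), adjusted p = 5.7e-08), 27.9-fold higher in leaf. GSTU5, an auxin-responsive gene, had -3.12 and -3.27, GSTU20 -2.36 and -2.28 and GSTF2 -2.26 and -2.15. GSTU18 and GSTU17, which are neighbours, had -2.14 and -1.99 and -1.996 and -1.96. A and B lay closer together for each of these 6 than for GSTU14.

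**Figure D2:**
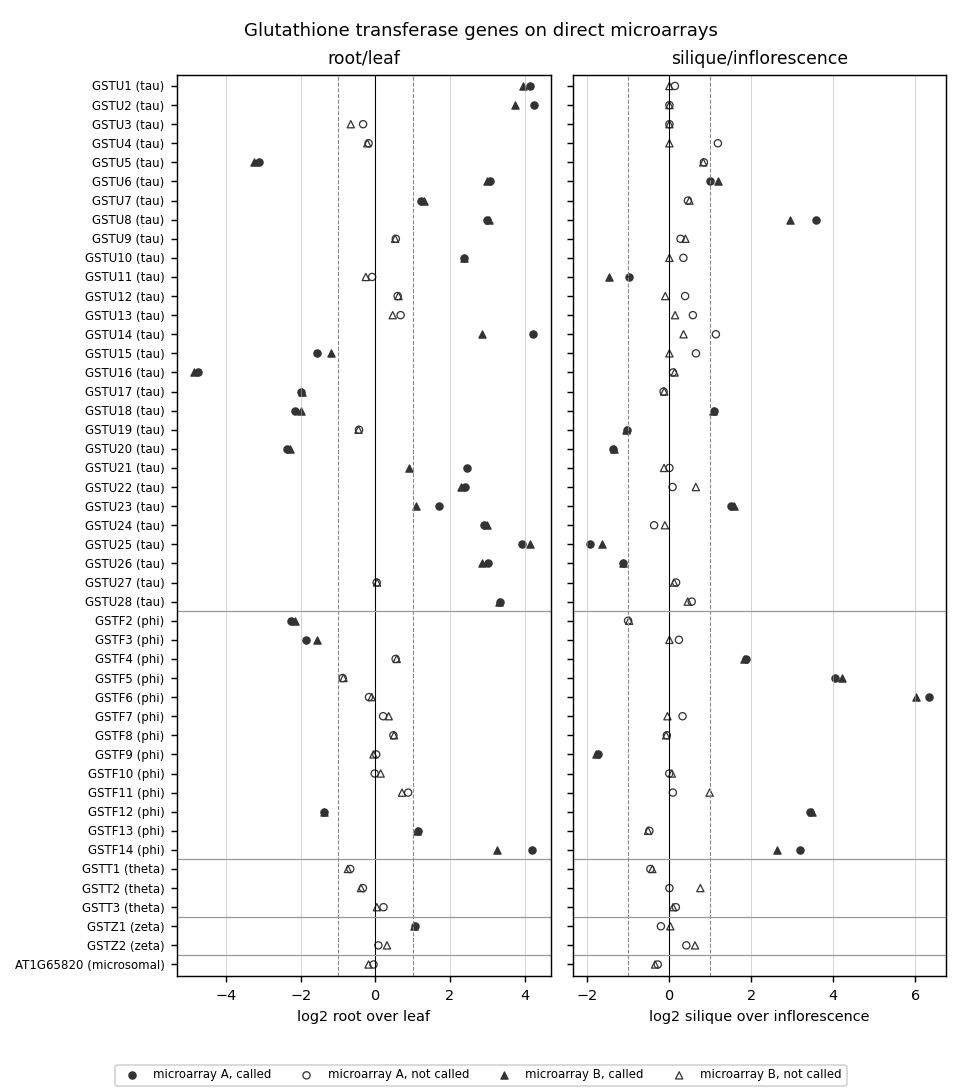
Log2 ratio of each of the 47 genes on the 2 root/leaf microarrays (left) and the 2 silique/inflorescence microarrays (right), with circles for microarray A and triangles for B, filled where the gene was called different, and dashed lines at 2-fold. Root/leaf ratios spread from GSTU16 at -4.80 to GSTU1 at 4.05, and most silique/inflorescence ratios lie near 0, with GSTF6 at 6.18.

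The same root/leaf contrast could be formed from separate single-tissue microarrays of the same RNA. There 14 genes were higher in root and 7 in leaf (all gene probes 11.7% and 10.1%), and 18 genes in all, in place of 21, without root A, which ended the calls of GSTF14, GSTU9, GSTU3 and GSTZ2. The call of GSTF14 was also lost without root B, leaf A or leaf B. Of the 17 genes called higher in root on direct microarrays 12 were also called so on the single-tissue microarrays, as were 6 of the 9 called higher in leaf, and none was called in opposite directions. The gap was widest for GSTF5, at -0.87 on direct and 0.43 on single-tissue microarrays, where it was dim and its SE was 1.06. GSTU9 followed, at 0.54 and 1.83, and its leaf levels were 12.1 and 36.9 NEU.

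**Figure D3:**
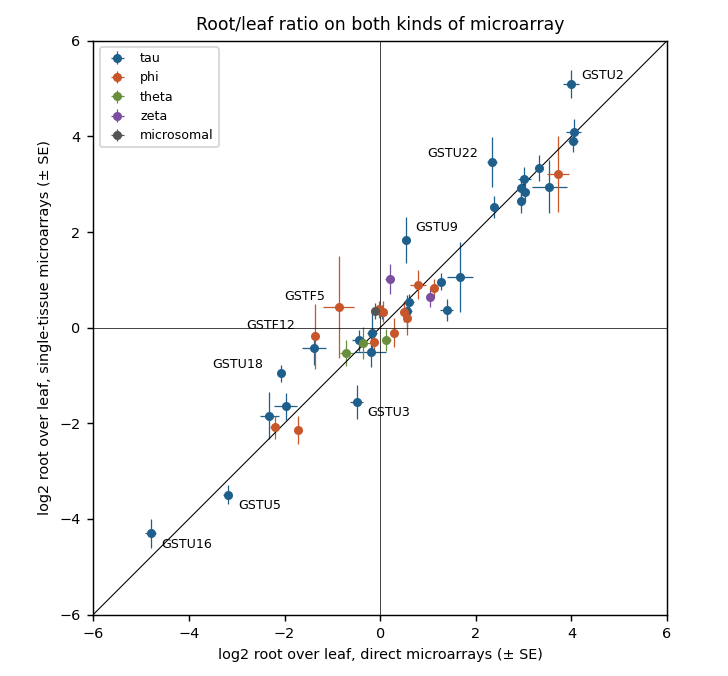
Root/leaf log2 ratio of the 47 genes on direct microarrays (x axis) and from separate single-tissue microarrays (y axis), each with its SE, coloured by class, with the line of equal values. Genes lie along the line from GSTU16 at -4.80 and -4.30 to GSTU2 at 3.99 and 5.09.

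Neighbouring tau genes did not share 1 pattern. In the group GSTU1 to GSTU7, GSTU1, GSTU2 and GSTU6 were 8.18-fold to 16.5-fold higher in root than in leaf on direct microarrays and GSTU7 was 2.404-fold higher, while GSTU5 was 9.13-fold higher in leaf. GSTU3 and GSTU4 had log2 ratios of -0.49 ± 0.14 and -0.198 ± 0.32 (SE) and were not called. All but GSTU5 of these 7 had their highest level in callus. GSTU5 had 10.7 and 9.499 NEU in callus, 7.17 and 4.097 in root, 46.8 and 45.4 in leaf and 81.6 and 76.4 in inflorescence, with the root A spot left out as an outlier. GSTU2 had 30.9 and 28.4 NEU in callus and 6.102 and 6.47 in root, and was not well above background in any channel of leaf or inflorescence. By a bound it was 72.0-fold higher in callus than in leaf and 15.3-fold higher in root than in leaf. The bound sets the dim tissue at the lowest signal of any probe well above background on each microarray. A dim signal above that one is kept as measured. It is not a detection limit, as a probe above that signal can still be not well above background. The fold values of GSTU2 are thus not strict lower limits.

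Among GSTU19 to GSTU23, GSTU20 was 4.98-fold higher in leaf than in root, GSTU21, GSTU22 and GSTU23 were 3.18-fold, 5.06-fold and 2.62-fold higher in root, and GSTU19 had a log2 ratio of -0.45 ± 0.13 (SE), with microarray A left out as an outlier. GSTU21 had 2.45 and 0.89 on A and B, the largest gap between root/leaf replicates, and was not called without A. GSTU24, GSTU25 and GSTU26 were 7.74-fold, 16.4-fold and 7.68-fold higher in root. GSTU26 differed from the other 2 in callus, with 47.1 and 49.5 NEU there and 54.1 and 86.1 in root.

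**Figure D4:**
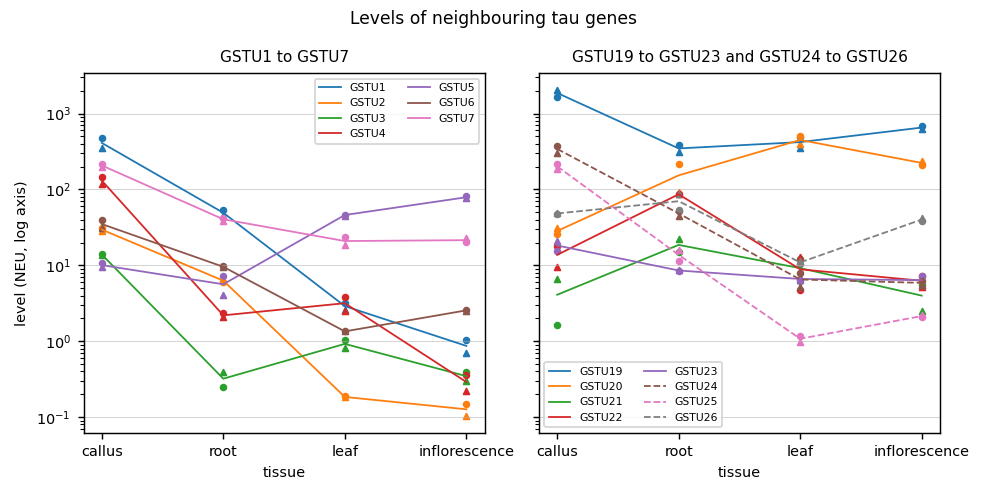
Level of neighbouring tau genes by tissue (y axis, NEU on a log axis; circles microarray A, triangles microarray B, lines through the mean), with GSTU1 to GSTU7 on the left and GSTU19 to GSTU26 on the right (GSTU24 to GSTU26, a separate group of neighbours, dashed). GSTU5 and GSTU20 are lower in callus than in leaf, while GSTU1, GSTU24 and GSTU25 lie at 188 NEU or more in callus and at 7.89 NEU or less in leaf.

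On the silique/inflorescence microarrays, 9 genes were higher in silique and 6 in inflorescence, against 7.64% and 8.04% of all gene probes, and the median log2 ratio of the 47 genes was 0.14 against 0 over all gene probes. With normexp and loess the calls fell to 4 and 3. The share of all gene probes called in that setting was not recorded, so the fall cannot be set against it. Phi supplied 5 of the 9 genes higher in silique, and 3 of these, GSTF4, GSTF5 and GSTF6, are neighbours.

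GSTF6, which takes part in camalexin synthesis, had the highest silique/inflorescence log2 ratio, 6.35 and 6.01 on A and B (mean 6.18 ± 0.09 (SE), adjusted p = 2.1e-09), 72.5-fold. Its processed signal was 11417 and 10161 in silique and 140.4 and 157 in inflorescence. GSTF7, the gene next to it, had log2 ratios of 0.32 and -0.05 and was not well above background in silique. On the single-tissue microarrays both genes were lowest in inflorescence, with GSTF6 at 6.85 and 5.69 NEU in inflorescence and 28.8 to 50.2 elsewhere, and GSTF7 at 7.72 and 4.66 and 24.2 to 35.9.

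GSTF5 followed with silique/inflorescence log2 ratios of 4.04 and 4.202, 17.4-fold, a gene that did not exceed 4.16 NEU on any single-tissue microarray. GSTF12 (TT19) had 3.43 and 3.48 (mean 3.45 ± 0.08 (SE), adjusted p = 6.9e-09), 11.0-fold, and its processed signal was 25938 and 25654 in silique against 2399 and 2306 in inflorescence. GSTU8 had 3.58 and 2.95, GSTF14 3.18 and 2.61 and GSTF4 1.88 and 1.81. For all 6 the A and B values lay on the same side of 2-fold, and GSTF14, GSTF4, GSTU6, GSTU18 and GSTU23 fell under 2-fold with normexp and loess. GSTU8 and GSTF14 were also higher in root than in leaf.

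Of the 6 genes higher in inflorescence, GSTF9 had log2 ratios of -1.74 and -1.79 (mean -1.77 ± 0.07 (SE), adjusted p = 1.2e-07), 3.399-fold, and GSTU20 -1.38 and -1.35. GSTU26 had -1.13 and -1.12 and GSTU19 -1.04 and -1.05. GSTU25 and GSTU11 were not well above background in silique on either microarray. With silique set at the lowest signal well above background, GSTU25 was 2.75-fold and GSTU11 2.102-fold higher in inflorescence. Their measured log2 ratios were -1.79 (limma adjusted p = 3.8e-06) and -1.23 (adjusted p = 1.1e-05). The fold values are not strict lower limits, since GSTF2 had a higher silique signal and was not well above background either. GSTF2, also not well above background in silique, was 1.99-fold higher in inflorescence by its measured ratio, which is not a bound. It was not among the calls. With a dye term, GSTU26 and GSTU19 fell just under 2-fold, to log2 ratios of -0.997 and -0.996. GSTU25, GSTU11 and GSTU26 fell under 2-fold with normexp and loess, to log2 ratios of -0.46, -0.27 and -0.97. Without microarray B, GSTU11 and GSTU6 fell just under 2-fold, to -0.976 and 0.9999.

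Among other phi genes, GSTF8, a stress-responsive gene, had 78.9 and 66.3 NEU in root and 30.7 and 41.7 in callus, and log2 ratios of 0.49 ± 0.04 (SE) for root/leaf and -0.07 ± 0.04 for silique/inflorescence. GSTF9 and GSTF10 had root/leaf log2 ratios of -0.01 ± 0.07 and 0.06 ± 0.07, where the GSTF9 spot was saturated in the root channel of both microarrays. GSTF13 was 2.18-fold higher in root (1.94-fold with normexp and loess) and GSTF3 3.28-fold higher in leaf. GSTF12 was 2.58-fold higher in leaf on the direct microarrays, with -1.37 and -1.37 on A and B, and was not called on the single-tissue microarrays (-0.18 ± 0.68 (SE), adjusted p = 0.86).

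The small classes had smaller root/leaf ratios. The 3 theta genes had root/leaf log2 ratios of -0.71 (GSTT1), -0.36 (GSTT2) and 0.13 (GSTT3) and none was called on either kind of direct microarray. GSTZ1, the maleylacetoacetate isomerase of tyrosine breakdown, had 34.1 and 25.5 NEU in callus, 9.82 and 10.1 in root, 6.98 and 6.09 in inflorescence and 6.55 and 6.296 in leaf. Its root/leaf log2 ratio was 1.06 and 1.03 on A and B (mean 1.04 ± 0.05 (SE), adjusted p = 3.6e-07), just past 2-fold. With normexp and loess GSTZ1 was 1.72-fold higher in root and was not called. GSTZ2, its neighbour, had 0.196 ± 0.09. The microsomal AT1G65820 stayed between 104 and 239.6 NEU on all 8 single-tissue microarrays.

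Other genes that make, use or move glutathione were counted on the root/leaf microarrays as well, where 11.6% of all gene probes were called higher in root and 10.9% in leaf. Of 4 genes for glutathione synthesis and reduction 1 was called, GR2, a plastid and mitochondrial glutathione reductase, 4.06-fold higher in leaf. Of 8 glutathione peroxidase genes 1 was called, the plastid GPX1, 5.23-fold higher in leaf, and of 3 dehydroascorbate reductases 1, the plastid DHAR3, 5.22-fold higher in leaf. All 3 lambda glutathione transferases, which the annotation did not name as such, were called, GSTL3 and GSTL2 higher in leaf (12.1-fold and 6.39-fold) and GSTL1 higher in root (2.996-fold). Of 13 ABCC transporter genes, a family with members that move glutathione conjugates into the vacuole, ABCC5 and ABCC7 were called. They were 2.52-fold and 2.45-fold higher in root, and whether these 2 carry such conjugates was not tested. Of 5 genes for conjugate turnover and phytochelatin synthesis 1 was called, GGT4, a vacuolar enzyme that starts the breakdown of conjugates, 2.08-fold higher in root, and the single TCHQD gene was not.

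Between silique and inflorescence, 4 of the 13 ABCC genes were higher in inflorescence, against 8.04% of all gene probes, with ABCC10 (4.77-fold), ABCC8 (2.23-fold) and ABCC1 (2.17-fold) at the largest ratios, and none was higher in silique. GGT2, a gamma-glutamyl transferase outside the cell, was 21.3-fold higher in silique (log2 4.41 ± 0.25 (SE), adjusted p = 1.2e-06) and GPX7, a plastid peroxidase, 2.64-fold. None of the genes for glutathione synthesis and reduction, of the dehydroascorbate reductases, of the lambda class or TCHQD was called in this comparison.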

How the data were processed

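Values of 12 Agilent microarrays were used. The authors deposited Feature Extraction output with raw, background and processed intensity per spot in both channels, and the log10 ratio of red over green processed intensity, already background-subtracted and dye-normalized by the software. The labels name Feature Extraction 8.1, while the file headers name versions 6.1.1 and 7.1.1. The array's genome build is not given in the sources used here. Affymetrix probe sets could not be tied to genes and were not analysed here, nor was MPSS.

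The log10 ratios were turned into log2. NEU followed the formula of the study, with the sum over all 21500 gene probes. Controls and outlier-marked spots did not enter, saturated spots did. Both sets were fitted in limma (lmFit, then eBayes with a trend) as a mean for each microarray type, all 12 microarrays for direct ratios and the 8 single-tissue microarrays for levels, with Benjamini-Hochberg adjustment over all gene probes. Probes that were not well above background in all channels of a tissue gave bounds. The number of microarrays limits the precision.

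Named genes were the 6 highest and 6 lowest on each kind of direct microarray (with a bright channel and the same sign on A and B). Also named were the 4 widest leads per tissue, 11 well-known members and the tau genes GSTU1 to GSTU7 and GSTU19 to GSTU24. For other lists the 3 largest calls could be named. Genes outside this rule were named after their values were seen, mostly as neighbours or calls. The members and lists were chosen with earlier results of these data known. Alternatives were normexp (offset 50) with loess, 75th percentile and quantile scaling, single channels, a pseudocount of 32, no trend, a dye term, a replicate block, the slide series as a random block, bright probes only, no fold limit, only the direct microarrays and leaving out each microarray. The script was tested on simulated data. Tests ran in limma 3.58.1 under R 4.3.3, and tables and plots in pandas 2.3.3 and matplotlib 3.10.9 under Python 3.11.15.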

Additional observations from a re-analysis of the deposited data

How the results depend on the processing

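Of 196 calls of single genes in the 8 comparisons, 158 held under every alternative in which they could be tested, and none changed direction in any. The number of genes called for silique/inflorescence was 15, 7 with normexp and loess and 29 with adjusted p alone. With adjusted p alone the fold limit is dropped from the same fit, so no call could be lost or change direction there. The cause of the fall to 7 was not tested. Every other count stayed within 1.5 times its value, with no share of all gene probes called recorded beside it. It ranged from 23 to 37 for root/leaf on direct microarrays (26 as reported), and on single-tissue microarrays from 25 to 33 for callus/leaf (29), 27 to 34 for callus/root (31), 25 to 30 for callus/inflorescence (29), 14 to 23 for inflorescence/leaf (16), 26 to 34 for inflorescence/root (29) and 19 to 24 for root/leaf (21). Leaving out 1 microarray gave 25 to 26, 15 to 15, 27 to 30, 28 to 30, 26 to 27, 11 to 17, 25 to 29 and 16 to 20 in the order root/leaf and silique/inflorescence on direct microarrays, then the single-tissue comparisons as listed. The lowest of these for inflorescence/leaf came without inflorescence B. The remaining microarray of a pair is then assumed to vary like the others.

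Replicates A and B share only a letter between tissues, as deviations of A from B correlated at -0.197 to 0.174 between tissues, and with a replicate block the counts were 26, 15, 29, 31, 29, 15, 28 and 19 in the same order. Quantile normalization shifted the median of all gene probes by 0.29 for callus/leaf and 0.33 for callus/root on the log2 scale, and 75th percentile scaling by 0.14 for callus/root. Alternatives for Affymetrix comparisons were not run. Silique signal limits the silique/inflorescence values, since 19 to 21 of the 47 genes were not well above background there.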
